A study of Mus musculus with 8 samples.

Results

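Of the 51431 sites obtained by merging overlapping glucocorticoid receptor (GR) peaks of 6 mouse liver libraries, 3021 (5.874%) were constant distal GR sites with FOXO1, here called GR/FOXO1 sites. The sites were chosen by peak presence. A site was taken when it overlapped a peak in all 6 lists, when its centre lay more than 1 kb from every annotated transcript start, and when it shared at least 1 bp with a FOXO1 peak. Sites present in all 6 lists numbered 8097, so the GR/FOXO1 sites made up 37.31% of them. The remaining constant sites comprised 1998 distal sites without a FOXO1 peak and 3078 promoter sites, of which 1083 (35.19%) overlapped a FOXO1 peak. Among the 5019 constant distal sites the selection therefore kept 60.19%. Presence in the lists and FOXO1 overlap chose the sites, so neither is treated as a finding. A called peak in every list also sets a lower limit on GR height, which applies alike to all constant sites. Summit position, sequence and the identity of neighbouring genes were not used directly. FOXO1 overlap and the distance from transcript starts still constrain them, so they are not independent of the selection.

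All livers came from male C57BL/6J mice. Control animals (ctrl.) ate freely until the final week, when feeding was limited to the night, calorically restricted animals (cal. res.) received a stepwise reduced ration at lights off, and CORT animals were fed in the night only and given corticosterone, the main rodent glucocorticoid, which the methods describe as daily intraperitoneal injection. GR was immunoprecipitated from 2 replicate liver samples per group. The paper places collection of the livers for GR and FOXO1 at lights off. Its methods give a shorter protocol for CORT than for ctrl. and cal. res., so protocol length differed between them and age may have. The labels of the ctrl. libraries name no vehicle injection, so feeding schedule was shared by ctrl. and CORT while the injection may not have been. FOXO1 was profiled in cal. res. livers alone, and reads of 2 libraries were merged before peaks were called, so FOXO1 height has no replicate spread and its presence in ctrl. and CORT livers was not measured. Whole liver holds several cell types, and a change in the share of hepatocytes cannot be told apart from a change in binding per cell.

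GR is a nuclear receptor that enters the nucleus when bound by glucocorticoid and contacts DNA at glucocorticoid response elements (GREs), inverted repeats of a short motif. FOXO1 is a forkhead factor kept out of the nucleus by insulin signalling, and it is active in the fasted liver, where it occupies genes of gluconeogenesis and of insulin sensitivity. Most binding of both proteins in hepatocytes lies outside promoters, in enhancers that also hold C/EBP and HNF4 factors.

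Fold enrichment, the height of a peak summit over its local background as given by the peak caller, is comparable only within a list. Values printed for single sites are raw, so an order of groups read from them is not adjusted for differences between lists. The lists held between 13667 rows (ctrl. replicate 2) and 48060 rows (CORT replicate 2), and the GR/FOXO1 sites took 27.76% of the distinct regions of the shortest list and 8.16% of the longest. The ctrl. replicate 2 list also limited the selection. Of 5395 distal sites with FOXO1 in any list, 1234 were missing from exactly 1 list, and for 1095 of these that list was ctrl. replicate 2. Without that library the same rule kept 4116 sites. The styles of the library names divided the samples as well, with both cal. res. libraries, ctrl. replicate 2 and FOXO1 in one style and both CORT libraries and ctrl. replicate 1 in the other, so that cal. res. and CORT cannot be told apart from name style.

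Near the limits of the selection, the innermost site was centred 1003 bp from a transcript start and the nearest excluded FOXO1 site 997 bp. The smallest FOXO1 overlap was 12 bp against a median of 464 bp, and the closest distal site without overlap lay 150 bp from a FOXO1 region. The GR/FOXO1 sites had a median width of 1138 bp (range 302 to 31288 bp), compared with 936.5 bp for constant distal sites without FOXO1. Wide intervals blur the word distal. Of the selected sites, 84 (2.78%) contained a transcript start, and at 48 the consensus GR summit, the median position of the highest summits of the 6 libraries, lay within 1 kb of one.

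Sequences at the GR summit are shown first for sites that carry the recognition sequences of both partners or of one of them, because these letters underlie the motif comparison, and then for sites whose GR height differed between groups. The forkhead core was searched as TGTTTAC, the GR hexamer as AGAACA, and the GRE palindrome as AGAACA and TGTTCT separated by 3 bases with up to 2 mismatches, each on both strands. A palindrome that keeps an intact AGAACA also counts as a hexamer. Capitals mark these matches, on either strand, in windows taken from the GRCm38 (mm10) assembly. None of the 120-base windows overlapped an annotated exon. The first 2 windows hold a forkhead core and a GR element. The next 3, and 30 bases within an exon of Angptl4, hold a palindrome, and 4 further windows hold a forkhead core without a GR element. The last 2 belong to the Ddit4 and Bcl2l1 sites described with the group comparison.

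Cps1 upstream, chr1:67116757-67116876, plus strand: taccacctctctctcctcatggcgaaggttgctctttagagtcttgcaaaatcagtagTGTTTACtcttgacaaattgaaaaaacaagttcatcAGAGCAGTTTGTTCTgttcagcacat
Lpin1 upstream, chr12:16618565-16618684, plus strand: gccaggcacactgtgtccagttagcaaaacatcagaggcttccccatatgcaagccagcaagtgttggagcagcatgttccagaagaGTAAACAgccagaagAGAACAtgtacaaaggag
Tat upstream, chr8:109987907-109988026, plus strand: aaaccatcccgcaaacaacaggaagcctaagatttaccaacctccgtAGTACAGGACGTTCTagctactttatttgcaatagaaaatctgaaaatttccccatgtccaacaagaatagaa
Per1 intron, chr11:69097018-69097137, plus strand: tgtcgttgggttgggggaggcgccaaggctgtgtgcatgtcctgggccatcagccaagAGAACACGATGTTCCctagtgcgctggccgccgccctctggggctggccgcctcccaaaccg
Fbxo31 intron, upstream of Map1lc3b, chr8:121563147-121563266, plus strand: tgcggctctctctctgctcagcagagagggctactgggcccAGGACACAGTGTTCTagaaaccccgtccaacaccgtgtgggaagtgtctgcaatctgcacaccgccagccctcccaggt
Angptl4 exon, chr17:33774884-33774913, plus strand: acaacagAGAACAAAATGTTCTgaggttgt
Foxo3 intron, chr10:42251381-42251500, plus strand: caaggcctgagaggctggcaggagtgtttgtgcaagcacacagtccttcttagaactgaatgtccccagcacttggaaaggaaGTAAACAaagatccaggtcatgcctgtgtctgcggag
Psmd9 intron, upstream of Hpd, chr5:123223174-123223293, plus strand: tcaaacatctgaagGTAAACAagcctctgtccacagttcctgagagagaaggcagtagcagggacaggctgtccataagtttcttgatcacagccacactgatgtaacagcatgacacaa
Upstream of Klf15, chr6:90435490-90435609, plus strand: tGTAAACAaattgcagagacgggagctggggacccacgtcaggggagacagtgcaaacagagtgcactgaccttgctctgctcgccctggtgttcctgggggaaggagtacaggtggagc
Rxra upstream, chr2:27625029-27625148, plus strand: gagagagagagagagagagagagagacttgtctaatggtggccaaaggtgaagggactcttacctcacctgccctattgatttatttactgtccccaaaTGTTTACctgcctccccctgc
Ddit4 downstream, chr10:59921285-59921404, plus strand: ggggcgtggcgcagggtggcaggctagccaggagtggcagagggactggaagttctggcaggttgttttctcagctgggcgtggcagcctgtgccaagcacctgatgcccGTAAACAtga
Bcl2l1 intron, chr2:152785654-152785773, plus strand: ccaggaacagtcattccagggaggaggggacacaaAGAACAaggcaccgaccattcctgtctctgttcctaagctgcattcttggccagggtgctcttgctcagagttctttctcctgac

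In the Cps1 window the FOXO1 summit fell on base 67, next to the forkhead core, with the palindrome further along the same window. In the Tat window it fell on base 42 and in the Per1 window on base 53, both beside the palindrome, although neither window contains TGTTTAC. Other forkhead windows had the FOXO1 summit away from the marked core. It fell ahead of the core on base 54 in the Foxo3 window, 50 in Rxra, 36 in Lpin1 and 44 in Ddit4. In the Psmd9 window it fell past the core, on base 48.

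GR was higher at the GR/FOXO1 sites than at other constant distal sites in every library. Height was expressed as the percentile of fold enrichment among the 8097 constant sites of a library. The median percentile of the GR/FOXO1 sites was 71.6 in ctrl. replicate 1, 64.9 in ctrl. replicate 2, 73.0 in both cal. res. libraries, 63.6 in CORT replicate 1 and 65.6 in CORT replicate 2. Constant distal sites without FOXO1 had medians of 41.7 and 41.2 for ctrl., 44.3 and 45.3 for cal. res. and 32.9 and 39.2 for CORT. The difference of medians averaged 27.8 ± 2.55 percentile points (SD, n = 6 libraries) and was positive in 6 of 6 libraries (two-sided exact sign-flip permutation test, p = 0.03125, the smallest that 6 libraries allow). Within 5 strata of site width the difference averaged 24.6 points (exact p = 0.03125).

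**Figure D1:**
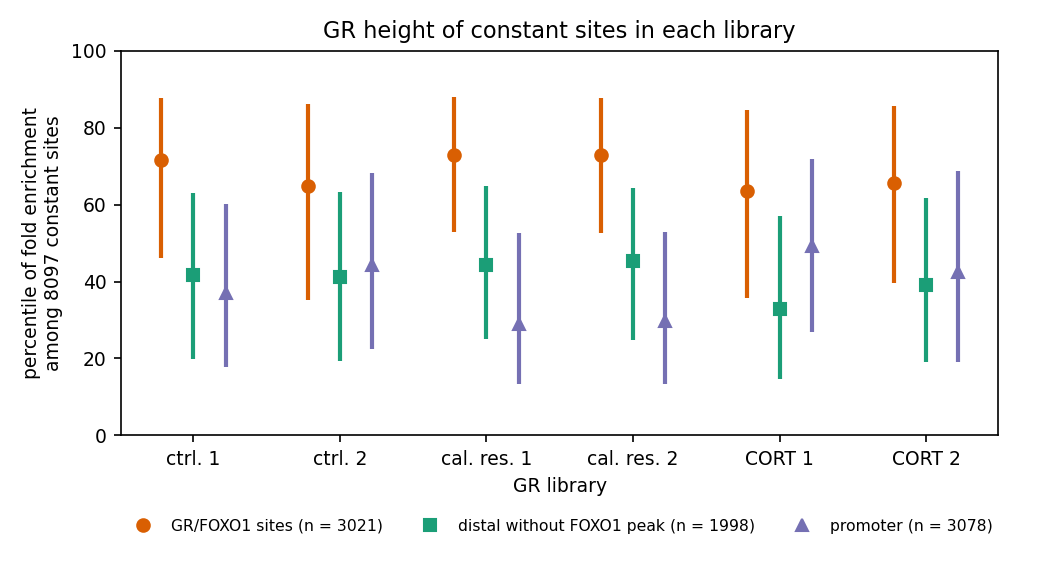
GR height of the 3 classes of constant sites in each library, as the percentile of fold enrichment among all constant sites (y axis, 0 to 100); points are medians over sites and bars run from the lower to the upper quartile. Medians of the GR/FOXO1 sites lie between 63.6 and 73.0 and above those of the distal sites without FOXO1 in all 6 libraries, while promoter medians range from 28.9 in cal. res. replicate 1 to 49.3 in CORT replicate 1.

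In fold enrichment, the median GR/FOXO1 site stood at 15.4 and 5.78 (ctrl.), 13.6 and 10.2 (cal. res.) and 15.1 and 16.7 (CORT). The corresponding medians without FOXO1 were 10.3, 4.65, 8.26, 6.37, 9.41 and 11.1 in the same order. The low values of ctrl. replicate 2 apply to both classes. At the top of each library the classes separated further. Between 65.8% (CORT replicate 1) and 79.7% (cal. res. replicate 1) of the highest 10% of constant sites were GR/FOXO1 sites, which make up 37.31% of all constant sites.

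GR and FOXO1 heights were positively related across the sites. Spearman's rho between GR and FOXO1 fold enrichment was 0.325 and 0.328 in ctrl. livers, 0.375 and 0.383 under cal. res., then 0.322 and 0.319 with CORT (n = 3021 sites, which share chromosomal neighbourhood and the same FOXO1 list). From the weakest to the strongest FOXO1 quartile, the median GR percentile went from 58.7 to 84.8 in ctrl. replicate 1, from 60.9 to 86.4 in cal. res. replicate 1 and from 48.0 to 81.0 in CORT replicate 1. FOXO1 fold enrichment itself ran from 3.72 to 47.4 at the selected sites with a median of 6.66. Of all 8068 distinct FOXO1 regions, 3295 (40.84%) overlapped a GR/FOXO1 site, including 79 of the 100 highest. FOXO1 regions at GR/FOXO1 sites had a median fold enrichment of 6.50, compared with 5.45 for 4253 regions at other GR sites and 5.28 for 520 regions with no GR peak in any library.

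**Figure D2:**
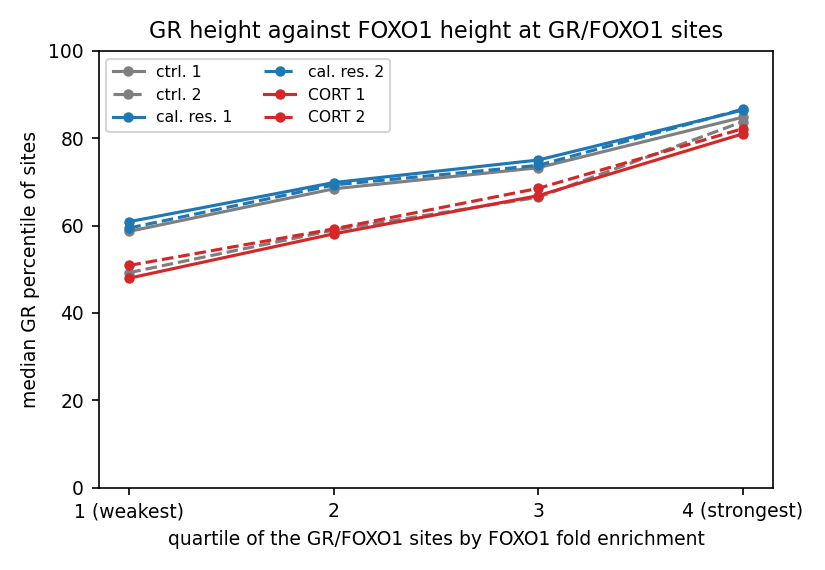
Median GR percentile (y axis) of the GR/FOXO1 sites in quartiles of FOXO1 fold enrichment (x axis, weakest to strongest), with 1 line per GR library, coloured by group. All 6 lines rise from left to right, from values between 48.0 and 60.9 to values between 81.0 and 86.6.

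The summits of both factors lay close together. The rule asked for overlapping peaks, which by itself favours short distances, and no expected distance was computed. The consensus GR summit lay a median of 28 bp from the nearest FOXO1 summit, within 50 bp at 71.67% of the sites and within 100 bp at 88.28%. At 96 sites (3.18%) the summits were more than 500 bp apart. In single libraries the median distance was 31 and 44 bp in ctrl., 32 and 34 bp in cal. res., and 34 and 33 bp in CORT. The share of sites with summits within 50 bp was 60.4% ± 7.51 in ctrl., 65.7% ± 2.48 in cal. res. and 64.5% ± 0.843 in CORT (SD, n = 2 libraries each). These shares differed by 5.31 points between cal. res. and ctrl. (exact permutation p = 0.667), by 4.09 points between CORT and ctrl. (exact p = 1.0), and by 1.22 points between cal. res. and CORT (exact p = 0.667), none of which could fall below 0.333 in this design. The low ctrl. value came from replicate 2 at 55.1%, and summits of that library also lay within 50 bp of the other libraries' GR summits at 68.6% of the sites, compared with 78.2% to 82.7% in the others. Without ctrl. replicate 2 the difference between cal. res. and ctrl. was -0.28 points and that between CORT and ctrl. -1.48 points.

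**Figure D3:**
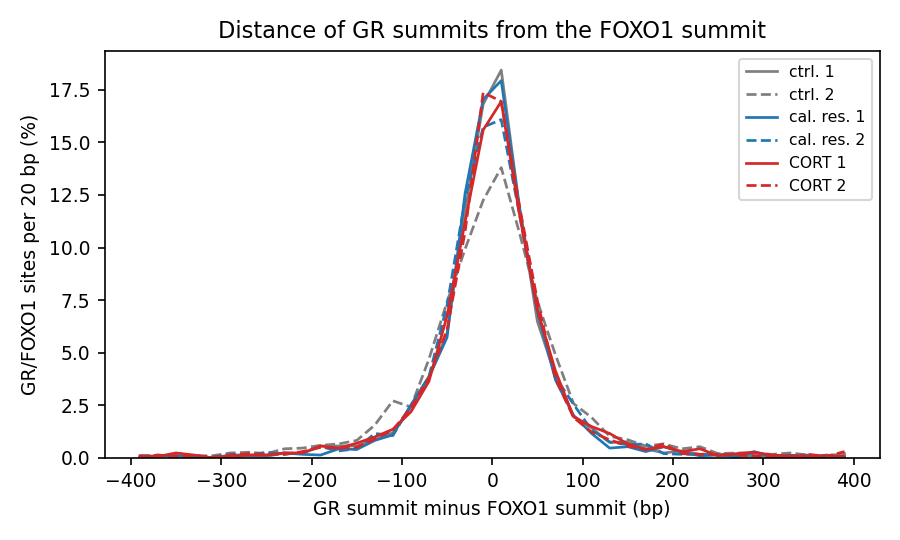
Distribution of the distance from the FOXO1 summit to the GR summit (x axis, bp) over the GR/FOXO1 sites (y axis, percent of sites per 20 bp) for each GR library. All libraries peak at the FOXO1 summit, and the line of ctrl. replicate 2 is lower and broader, with a median distance of 44 bp.

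Of 15 motifs searched in 200 bp at the consensus GR summit, the forkhead core separated the classes most. FOXO1 is itself a forkhead factor and its peaks chose the sites, so this separation is not independent of the selection. The core occurred at 11.39% of the GR/FOXO1 sites (344 of 3021, exact binomial 95% interval 10.28 to 12.57) and at 2.6% of the constant distal sites without FOXO1 (1.95 to 3.40). Its share was 5.24% at all GR sites and 6.14% at all distal sites. At 1 kb from the summits its share was 2.6% at GR/FOXO1 sites and 2.78% at sites without FOXO1. The insulin response element, TTGTTTTG, was found at 4.34% of the GR/FOXO1 sites, 1.60% of those without FOXO1 and 3.04% of all sites, while its share at 1 kb from the summits was 3.74% at GR/FOXO1 sites and 4.38% without FOXO1. The GR elements differed less. The AGAACA hexamer was present at 26.85% and 24.02% of the 2 classes and 18.27% of all sites, and the GRE palindrome at 8.41%, 7.06% and 3.34%, with overlapping intervals for the palindrome (7.44 to 9.45 and 5.97 to 8.27).

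Elements of other factors were searched in the same windows. TTGC and AA separated by 2 bases, bound by C/EBP factors, occurred at 24.0% of the GR/FOXO1 sites, 20.52% of those without FOXO1 and 15.22% of all sites. CAAAGTCCA with at most 1 mismatch, bound by HNF4, occurred at 20.92%, 19.97% and 12.82%. For ATCAAT, bound by HNF6, the shares were 14.23%, 12.11% and 10.17%, and for TTATGTAA with at most 1 mismatch, the D-box of clock output factors, 21.78%, 16.82% and 16.4%. The PPAR element, AGGTCA repeated after 1 base with up to 2 mismatches, occurred at 11.49%, 11.31% and 7.12%, and the STAT element, TTC and GAA separated by 3 bases, at 11.55%, 10.36% and 7.95%. The LRH-1 element TCAAGGTCA with 1 mismatch was found at 13.24%, 13.21% and 9.62%, the E-box CACGTG at 5.0%, 5.21% and 4.84%, and TGANTCA, bound by AP-1, at 7.58%, 7.46% and 6.71%. The NFI palindrome, TTGGC and GCCAA separated by 5 bases with 1 mismatch, was seen at 1.49%, 1.85% and 1.34% and the ETS element CCGGAAG at 0.99%, 1.35% and 3.42%. At all distal sites the shares were 17.61% for C/EBP, 14.78% for HNF4, 12.34% for HNF6, 19.57% for the D-box and 7.77% for AP-1. Shares at 1 kb from the summits, at GR/FOXO1 sites and without FOXO1, were 7.96% and 8.21% for C/EBP and 6.04% and 7.08% for HNF4. For the D-box they were 17.61% and 16.74%, so its share without FOXO1 was near that background. The C/EBP, HNF4, PPAR, D-box and LRH-1 patterns can overlap each other in part. Neither a forkhead core nor a GR element was matched at 62.23% of the GR/FOXO1 sites, and both were matched at 95 (3.14%). The windows had a mean GC content of 48.63% ± 6.89 (SD over sites), compared with 50.24% ± 7.42 without FOXO1.

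Forkhead cores were densest at FOXO1 summits and GRE palindromes at GR summits. Around the FOXO1 summit, forkhead cores were 11.1 times as dense in the central bins as at the window edges, and around the GR summit of the same sites 4.10 times. At sites without FOXO1 the ratio was 1.41. The GRE palindrome showed the opposite order, with a ratio of 14.3 at GR summits and 5.72 at FOXO1 summits of the GR/FOXO1 sites and of 6.83 at GR summits without FOXO1. At GR summits its central density was nearly the same in both classes, 1.54 matches per 100 sites per 20 bp at GR/FOXO1 sites and 1.45 without FOXO1. The ratios differed mainly through the sparse edges, at 0.108 and 0.213.

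**Figure D4:**
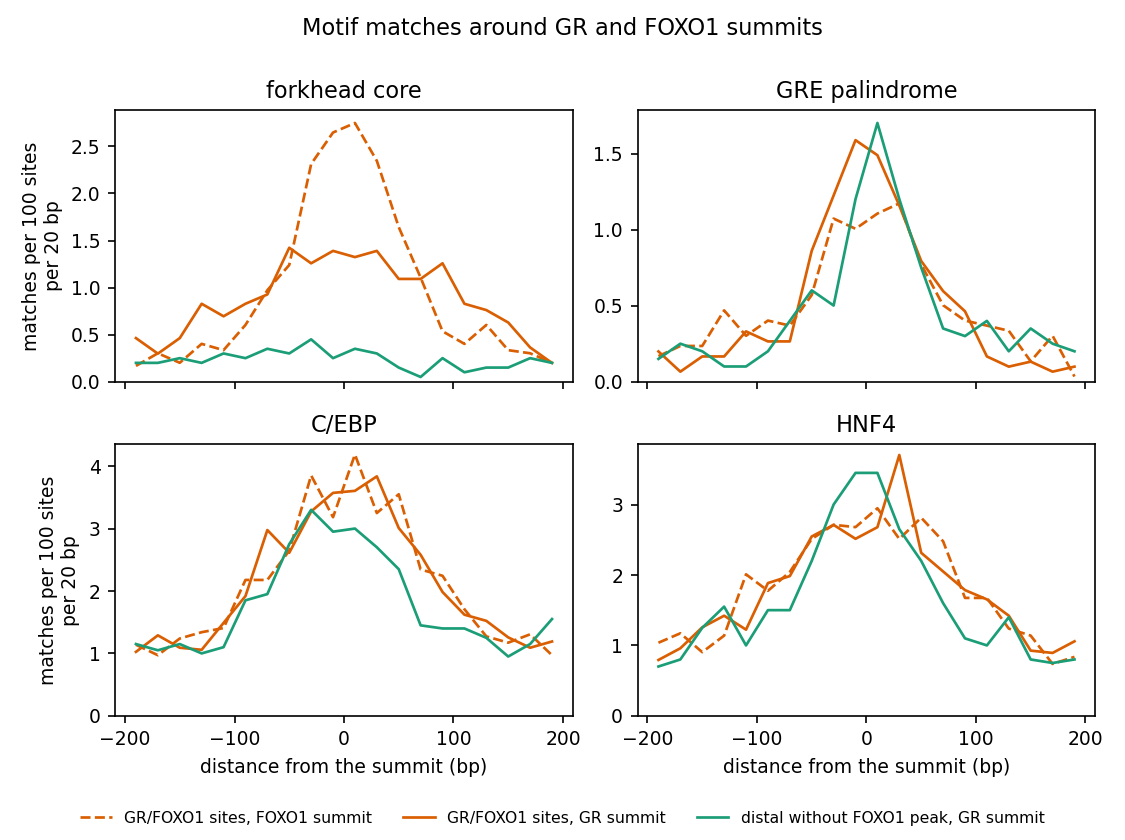
Matches per 100 sites per 20 bp (y axes) against distance from the summit (x axes, bp) for the forkhead core, the GRE palindrome, C/EBP and HNF4; solid orange, GR/FOXO1 sites centred on the GR summit; dashed orange, the same sites centred on the FOXO1 summit; green, constant distal sites without FOXO1. Forkhead matches reach 2.70 per 100 sites in the central bins at FOXO1 summits, compared with 1.36 at GR summits and 0.30 at sites without FOXO1.

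The forkhead core was found at 5.42%, 5.96%, 10.46% and 23.71% of the sites from the weakest to the strongest FOXO1 quartile, and the median FOXO1 fold enrichment was 9.88 with the core and 6.44 without it. Across quartiles of mean GR percentile its share went the other way, from 13.89% to 9.40%. The GRE palindrome was found at 2.51%, 5.56%, 6.36% and 19.21% of the sites across the same GR quartiles, and at 7.67%, 7.02%, 7.42% and 11.52% across the FOXO1 quartiles. The median FOXO1 fold enrichment was 7.38 with a palindrome and 6.62 without. The 254 sites with a palindrome had median GR percentiles of 86.5 and 89.4 for ctrl., 93.8 and 93.9 for cal. res. and 84.5 and 88.6 for CORT. For the 2767 sites without one they were 70.3 and 62.5, 71.0 and 71.1, and 61.6 and 63.1. Sites with a palindrome thus had the higher median in all 6 libraries. Constant distal sites without FOXO1 showed the same order, with a median mean percentile of 58.02 with a palindrome and 38.94 without. With a forkhead core their median was 27.46, and without it 40.31, so neither order is particular to GR/FOXO1 sites.

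The site with the highest mean percentile, chr2:167841323-167845348, lay between genes, 11.1 kb upstream of the noncoding gene 1200007C13Rik and 87.58 kb upstream of Ptpn1, a phosphatase that dampens insulin receptor signalling. Its GR fold enrichment was 183 and 99.3 (ctrl.), 252 and 191 (cal. res.) and 154 and 283 (CORT), and its FOXO1 fold enrichment was 19.56. It ranked first or next to first in every library.

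An intronic site of Zbtb16, a glucocorticoid-inducible transcriptional repressor, had GR fold enrichments of 141 and 55.8 in ctrl. livers, 221 and 172 under cal. res., then 95.5 and 179 with CORT, with FOXO1 at 39.98. Per1, a clock gene and known GR target, held a site (chr11:69094542-69100549) at 124 and 65.3 for ctrl., 123 and 86.6 for cal. res. and 116 and 173 for CORT. At Fkbp5, which encodes a co-chaperone that limits GR activity, the highest site spanned chr17:28516983-28526327 with its summit 0.66 kb upstream of the Fkbp5 start and values of 124 and 72.1, 183 and 130, and 115 and 107. The mean percentiles, by which these sites were picked, were 99.91, 99.87 and 99.87.

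Others among the 10 highest were the Gm16079 site upstream of Slc45a1, the Gm13049 site upstream of Errfi1, the 4930572O13Rik site, the Ttpal site downstream of Hnf4a, and an Fbxo31 intron upstream of Map1lc3b, with mean percentiles between 99.78 and 99.95. At the other end, a site in an Insr intron had a mean percentile of 8.59, a Tmem266 intron 6.79 and a Ubqln1 intron 4.53. These still carried a peak in all 6 lists, the lowest fold enrichment of the Insr site being 3.16 in cal. res. replicate 2. The strongest FOXO1 height, 47.45, occurred in an intron of the noncoding gene B930025P03Rik, where the mean GR percentile was only 68.85. Apoa5 followed at 45.21 with a mean GR percentile of 95.35, then the Rtkn2 intron at 41.07 and a site upstream of Rxra at 40.64. Rxra encodes the common partner of nuclear receptors, and this site lay outside the 50 kb window used for genes. The single GR/FOXO1 site within 50 kb of Rxra had FOXO1 at 7.705. Percentiles varied by a median SD of 14.23 points over the 6 libraries, and the widest spread, 41.64, was at the Gm37073 site, whose fold enrichment was 3.42 and 9.15 (ctrl.), 19.95 and 14.7 (cal. res.) and 5.54 and 11.07 (CORT).

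No GR/FOXO1 site passed the threshold between cal. res. and ctrl. livers. In limma on quantile-normalized log2 fold enrichment, 0 of 3021 sites were higher and 0 lower in cal. res. than in ctrl. at a Benjamini-Hochberg adjusted p under 0.05, where 0.0% of all constant sites were called in either direction. At an unadjusted p under 0.05, 248 sites (8.21%) were higher and 52 (1.72%) lower, beside 5.22% and 4.79% of all constant sites. The FOXO1 peaks that chose the sites came from cal. res. livers, and whether that shifted these shares was not tested. The lowest adjusted p was 0.27. The median log2 difference was 0.13, beside 0.07 at distal sites without FOXO1, -0.19 at promoters and 0.00 over all constant sites. When the libraries were scaled on distal sites alone it was 0.03, and centring on medians in place of quantiles called 17 GR/FOXO1 sites, all higher in cal. res., among 22 of all constant sites (21 higher, 1 lower).

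The largest test statistics in this comparison belonged to 3 sites. A Peli2 intron had GR fold enrichments of 6.28 and 4.14 in ctrl. and 24.26 and 17.18 in cal. res. (log2 difference 1.88, SE 0.34). The site 30.49 kb downstream of Ddit4 had 7.89 and 5.29 against 33.04 and 32.01 (2.01, SE 0.38), and the site 18.73 kb upstream of Pank3, a pantothenate kinase of coenzyme A synthesis, had 8.69 and 3.6 against 22.26 and 19.09 (1.82, SE 0.35). These sites were picked by the statistic itself, so the separation of their groups follows from the choice. Each had a limma adjusted p of 0.27. In the other direction, the sites near Ahsg (named by Gm30505) and in Asb2 (named by Fam181a) had log2 differences of -1.50 and -1.79 (limma adjusted p = 0.27 and 0.276).

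GR was higher in CORT than in ctrl. at 4 of 3021 GR/FOXO1 sites and lower at 0 (limma, Benjamini-Hochberg adjusted p under 0.05). Of all 8097 constant sites, 14 (0.173%) were higher and 2 (0.0247%) lower. An intron of Bcl2l1, which encodes an inhibitor of apoptosis, held the largest change. At chr2:152784426-152786498, nearest to Gm23802, GR fold enrichment was 7.39 and 4.40 in ctrl. livers, 16.25 and 14.44 under cal. res., then 62.66 and 65.26 with CORT. CORT exceeded ctrl. by 2.88 on the log2 scale (SE 0.33, limma adjusted p = 0.0103). The printed window contains a single AGAACA and no palindrome. None of the 4 sites kept its call without CORT replicate 1 or without CORT replicate 2, when 0 sites were called, and the Bcl2l1 site alone was called when either cal. res. library was left out. Without ctrl. replicate 2 there were 17 calls, 14 higher and 3 lower in CORT, among 32 over all constant sites (27 higher, 5 lower).

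At Ddit4, a glucocorticoid-induced inhibitor of mTORC1 signalling, the downstream site chr10:59920712-59921700 had fold enrichments of 7.89 and 5.29 for ctrl., 33.04 and 32.01 for cal. res. and 58.2 and 42.12 for CORT. Both treated groups stood above ctrl., and the difference of CORT from ctrl. was 2.271 (SE 0.38, limma adjusted p = 0.0384, or 0.0523 with the replicate block). FOXO1 fold enrichment there was 28.9. A further 3 GR/FOXO1 sites surrounded the gene. The site 18.11 kb upstream had 13.7 and 11.39 (ctrl.), 49.82 and 39.28 (cal. res.) and 39.78 and 43.72 (CORT). The site 8.06 kb downstream had 6.28 and 3.53, 6.18 and 7.69, and 33.5 and 21.42, and that 22.47 kb upstream had 8.56 and 6.74, 22.4 and 20.05, and 12.18 and 22.13. These raw values are not scaled between lists, so the order of the groups was not counted over the sites. The first site alone passed the threshold, and only for CORT against ctrl.

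The other sites called in this comparison were broad intervals whose GR summit lay close to a promoter although their centre was distal. At Mt1, which encodes a metal-binding metallothionein induced by glucocorticoid, the summit of chr8:94178155-94183892 was within 0.22 kb of a start and the centre 1.78 kb away. Its fold enrichment was 52.65 and 26.3 in ctrl. livers, 67.09 and 43.39 under cal. res., then 130 and 214 with CORT, a difference between CORT and ctrl. of 1.34 (SE 0.20, limma adjusted p = 0.026). The Fga site, chr3:83025258-83035737, covered the fibrinogen alpha gene start, with its summit within 0.18 kb of a start and its centre 4.28 kb away. Fga fold enrichment was 15.0 and 6.45 for ctrl., 35.8 and 21.44 for cal. res. and 52.28 and 104 for CORT (difference 2.12, SE 0.31, limma adjusted p = 0.026). In raw values the CORT libraries were the highest at both sites. Mt1 also lost its call under median centring (limma adjusted p = 0.068). Over all GR/FOXO1 sites, 129 (4.27%) were higher and 253 (8.37%) lower at an unadjusted p under 0.05, beside 6.55% and 5.98% of all constant sites, and the median log2 difference of CORT from ctrl. was -0.07, beside -0.09 without FOXO1 and 0.08 at promoters.

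Directly compared, cal. res. and CORT livers differed at 2 of 3021 GR/FOXO1 sites, 1 higher and 1 lower in cal. res. livers. Of all 8097 constant sites, 1 (0.0124%) was higher in cal. res. and 8 (0.0988%) lower. A site 17.68 kb from the start of the noncoding gene 1810053B23Rik (chr16:93334629-93336036) had fold enrichments of 56.16 and 21.9 (ctrl.), 123 and 111 (cal. res.) and 33.23 and 57.54 (CORT), and cal. res. exceeded CORT by 1.85 (SE 0.25, limma adjusted p = 0.0237). Mt1 differed the other way, by -1.52 (SE 0.20, limma adjusted p = 0.0237). At an unadjusted p under 0.05, 353 GR/FOXO1 sites (11.68%) were higher and 97 (3.21%) lower in cal. res., beside 7.1% and 9.4% of all constant sites. All constant sites include promoters, whose median moved the opposite way. The FOXO1 peaks that chose the sites came from cal. res. livers, and whether that shifted these shares was not tested. The median log2 difference was 0.23 at GR/FOXO1 sites, 0.17 without FOXO1 and -0.27 at promoters, and 0.07 at GR/FOXO1 sites when scaled on distal sites alone. With a term for library name style both calls were lost (limma adjusted p = 0.0978 for each), at differences of 2.00 for 1810053B23Rik and -1.76 for Mt1. Under median centring the Mt1 difference was -0.95 and lost its call (limma adjusted p = 0.0932). Median centring called 92 GR/FOXO1 sites, 87 higher and 5 lower in cal. res., whereas the 315 calls over all constant sites were 123 higher and 192 lower. Without ctrl. replicate 1 there were 66 calls, 47 higher and 19 lower, beside 65 higher and 188 lower over all constant sites. Without ctrl. replicate 2 there were 76, 52 higher and 24 lower, beside 71 higher and 192 lower. These libraries are not compared here but enter the shared normalization and estimate of the spread. Without any single cal. res. or CORT library there were 0.

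**Figure D5:**
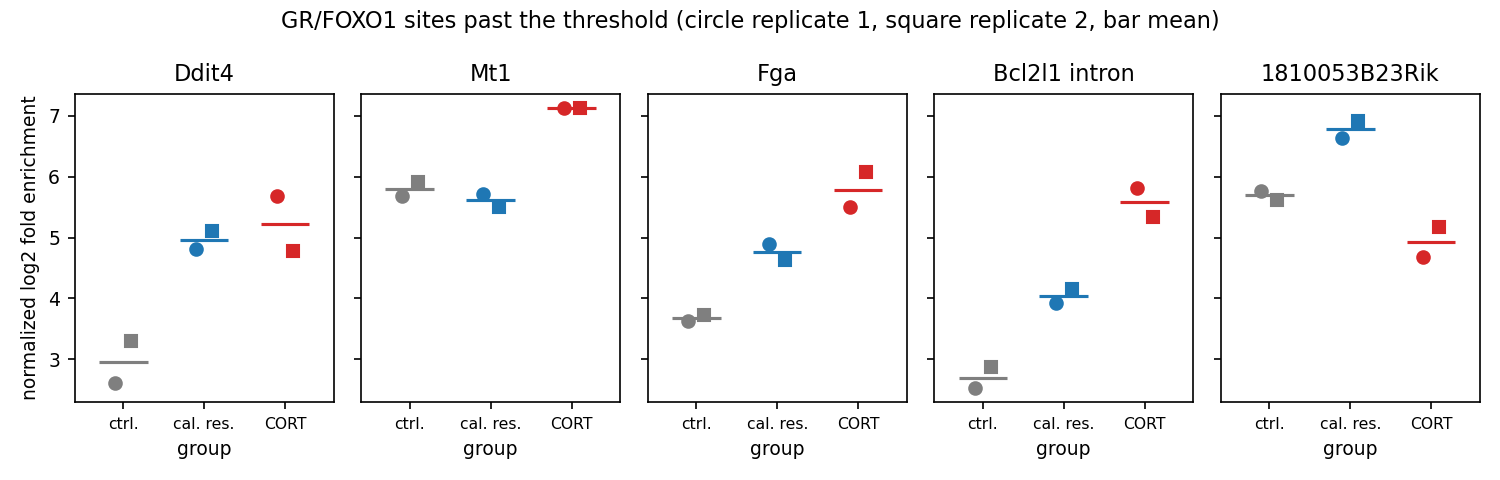
Quantile-normalized log2 fold enrichment (y axis) of the 5 GR/FOXO1 sites past the threshold in any comparison, by group (x axis); circles, replicate 1; squares, replicate 2; bars, group means. Ctrl. values are the lowest at the Ddit4, Fga and Bcl2l1 sites, CORT is the highest at Mt1, and cal. res. is the highest at the 1810053B23Rik site.

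The advantage of GR/FOXO1 sites over distal sites without FOXO1 was present in all 3 groups. The difference of median percentiles was 26.8 ± 4.43 in ctrl., 28.2 ± 0.708 in cal. res. and 28.5 ± 3.02 in CORT (SD, n = 2). It differed by 1.37 points between cal. res. and ctrl. (exact permutation p = 1.0), by 1.67 between CORT and ctrl. (exact p = 0.667) and by -0.30 between cal. res. and CORT (exact p = 1.0), and 2 libraries against 2 cannot give a p below 0.333. The absolute position of the sites moved more. Their median percentile was 68.3 ± 4.74 in ctrl., 73.0 ± 0.027 in cal. res. and 64.6 ± 1.43 in CORT, that is 8.42 points higher in cal. res. than in CORT (exact p = 0.333). Promoter sites moved the opposite way, being 16.6 points lower in cal. res. than in CORT (exact p = 0.333), and percentiles of the classes are tied to each other by construction.

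Within the genome, 55.41% of the consensus summits fell in introns and 40.58% between genes, with 0.83% in coding exons and 3.18% in noncoding exons or UTRs. Constant distal sites without FOXO1 were distributed over the same classes as 59.31%, 34.73%, 2.2% and 3.75%. The median distance from a site's centre to the nearest start was 10.7 kb in GR/FOXO1 sites and 10.6 kb without FOXO1. GR/FOXO1 sites lay closer together, a median of 27.4 kb from the next such site, compared with 95.06 kb for the less numerous sites without FOXO1. Of the GR/FOXO1 sites, 30.55% had another within 10 kb. Chaining sites at most 10 kb apart gave 88 clusters of 3 or more sites, holding 293 sites, and 7 clusters of 5 at Tat, Clmn, Pim3, Apoa1, Igf1 and 2 further loci.

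Within 50 kb of a transcript start, 3073 of 21938 protein-coding genes (14.0%) had at least 1 GR/FOXO1 site, 387 had at least 3 and 52 at least 5, while 805 of the sites had no coding start in that range. The lists of liver genes were above this share and the list of genes of other tissues below it. Gluconeogenesis had 12 of 17 genes with a site, insulin and FOXO targets 15 of 24, GR targets 17 of 23, amino acid and urea metabolism 17 of 21, lipid oxidation and ketogenesis 14 of 23, lipogenesis and sterol metabolism 11 of 18, clock genes 13 of 19, hepatocyte transcription factors 16 of 19, STAT and cytokine signalling 13 of 18, and autophagy 7 of 19. Hepatocyte markers had 15 of 19, and of 24 markers of other tissues 1 had a site, Sftpc, whose sites lie in the neighbouring gene Bmp1. Constant distal sites without FOXO1 lay near 2650 of the 21938 genes, and the liver lists were above that share too. Genes with such a site made up 64.71% of gluconeogenesis, 63.16% of hepatocyte transcription factors and 21.05% of autophagy, the lowest liver list. Among markers of other tissues they made up 12.5%. The liver genes were listed because liver expresses them, neighbouring genes share sites, and proximity does not show which gene a site regulates.

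Among genes of gluconeogenesis, Tat, the tyrosine aminotransferase long used as a model of glucocorticoid induction, had 5 GR/FOXO1 sites. Their mean percentiles were 91.58, 91.14, 94.81, 98.45 and 76.16 from 10.85 kb upstream to 6.66 kb downstream. The highest, 2.47 kb upstream, had GR fold enrichments of 60.0 and 11.37 in ctrl. livers, 92.0 and 71.87 under cal. res., then 56.3 and 141 with CORT with FOXO1 at 27.21, and holds the palindrome printed for Tat. In raw values both cal. res. libraries at this Tat site lay above both ctrl. libraries, and CORT overlapped both groups. No difference passed the threshold (limma adjusted p = 0.49 for cal. res. against ctrl.). Pck1, which encodes the cytosolic phosphoenolpyruvate carboxykinase, had sites with summits 6.14 and 0.28 kb upstream, the latter within a wide interval that reaches the promoter. Values at the nearer Pck1 site were 64.93 and 22.45 for ctrl., 32.11 and 31.84 for cal. res. and 48.82 and 81.46 for CORT. G6pc, which encodes the glucose-6-phosphatase catalytic subunit, had a site 5.13 kb upstream at 34.49 and 9.17 (ctrl.), 29.4 and 24.29 (cal. res.) and 19.38 and 33.66 (CORT). In raw values the groups overlapped at the G6pc site, and Pck1 was not called in any comparison (lowest adjusted p 0.278 in limma). Gpt2 and Sds, enzymes of alanine and serine breakdown, had 3 sites each.

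Among insulin and FOXO targets, Igfbp1, the insulin-repressed IGF-binding protein, had 3 sites. The one 4.88 kb upstream contains TTGTTTTG in its 200 bp window and had GR at 28.49 and 7.59 in ctrl. livers, 35.99 and 29.74 under cal. res., then 32.49 and 25.5 with CORT. Klf15, a regulator of amino acid breakdown, had 7 sites, of which 4 lie in introns of Aldh1l1. The highest, 27.03 kb upstream of Klf15, had 59.61 and 27.52, 63.6 and 54.8, and 62.52 and 73.69 in the same order, with FOXO1 at 33.63. Foxo3, a paralogue of FOXO1, had 6 sites, 5 of them intronic. The highest Foxo3 site stood at 39.1 and 14.29 for ctrl., 63.01 and 46.97 for cal. res. and 37.14 and 53.59 for CORT, with the FOXO1 summit 7 bp from that of GR. Foxo1 itself had 1 site, with a mean percentile of 53.72. Irs1 and Akt2 had none.

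Of the GR targets, Fkbp5 had 5 sites, Dusp1, a phosphatase of MAP kinases, 4, Ddit4 4, and Lpin1, a phosphatidate phosphatase and coactivator, 3. Lpin1 sites lay 7.66, 19.62 and 22.45 kb upstream with mean percentiles of 99.36, 98.79 and 86.92. The nearest had 70.19 and 39.47 (ctrl.), 130 and 100 (cal. res.) and 54.37 and 76.35 (CORT). In raw values both cal. res. libraries at this Lpin1 site were above all others. The difference of cal. res. from CORT, 1.09 on the log2 scale (SE 0.21), did not pass the threshold (limma adjusted p = 0.0637). Nr3c1, which encodes GR, had none within 50 kb.

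In amino acid and urea metabolism, Cps1, the entry enzyme of the urea cycle, had 4 sites, all upstream. That with the forkhead core and palindrome, 6.21 kb upstream, had GR at 53.22 and 18.96 in ctrl. livers, 43.6 and 44.31 under cal. res., then 44.53 and 71.52 with CORT, with FOXO1 at 17.52. Hpd, of tyrosine breakdown, had 5 sites upstream in introns of Psmd9, Arg1 had 4 and Bhmt 3. In lipid metabolism, Angptl4, a fasting-induced inhibitor of lipoprotein lipase, had a site 6.97 kb downstream of its start whose values were 64.21 and 23.42, 62.29 and 48.12, and 58.68 and 95.31, with FOXO1 at 34.05. Cyp8b1, of bile acid synthesis, had 5 sites, Ppara 4, and Cpt1a, Cyp7a1, Insig2 and Mlxipl 3 each, while Fasn, Acaca and Srebf1 had none.

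Among the remaining lists, Hnf4a and Nr1h4, the bile acid receptor gene, had 5 sites each and Cebpa 4. Ghr, the growth hormone receptor gene, had 6 sites, with mean percentiles between 32.95 and 69.29, and Igf1, its hepatic effector, 4 within 50 kb of a start, between 27.0 and 97.85. Autophagy genes were the liver list with the lowest share. Map1lc3b had 3 sites, the highest of them in the Fbxo31 intron at 103 and 40.1 for ctrl., 114 and 77.32 for cal. res. and 116 and 163 for CORT, and Bnip3 had 1. Hepatocyte markers included dense loci. Apoa1, Apoa4 and Apoc3 shared 7 sites, Fga, Fgb and Fgg shared 6, and Alb had 6, beside 7 each at Pim3, a serine/threonine kinase, and Por, the electron donor of cytochromes P450. The highest Pim3 site had fold enrichments of 68.49 and 33.01 (ctrl.), 121 and 106 (cal. res.) and 112 and 221 (CORT). In raw values both treated groups were above ctrl. there, and the log2 differences of 0.58 and 0.82 did not pass the threshold (limma adjusted p = 0.433 and 0.188).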

How the data were processed

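Peaks were read from deposited narrowPeak lists of 6 GR libraries and 1 merged FOXO1 list. Per the methods, the authors aligned paired reads to mm10 with BWA, discarded duplicate and multimapping reads, called peaks with MACS2 (a stricter cutoff for FOXO1) and filtered blacklisted regions with bedtools. The deposited values are fold enrichment, a ratio of summit signal to local background, −log10 p and −log10 q values, and summit offsets in bp, which carry no normalized unit. The lists give no read counts, so the depth behind each value is unknown and intervals of shares cover counting error over sites only. Groups and replicates came from the labels. The study calls the 2 samples per group biological replicates, but no label ties them to separate animals, so p-values measure only the spread between these samples.

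Overlapping GR rows were merged into sites, and each library's height at a site was that of its highest summit. The consensus summit was the median position of these summits. Transcript starts and genes came from GENCODE M21 basic and sequences from the GRCm38 assembly. log2 fold enrichment was quantile-normalized over the 8097 constant sites and fitted with limma 3.58.1 (R 4.3.3) in 3 groups with a mean-variance trend and Benjamini-Hochberg adjustment over all constant sites. The fit was also run on simulated data, with an outcome not reported here, so the power at 2 libraries per group is not given. Differences of medians and shares were tested by exact permutation over libraries with Python 3.11.15, NumPy 2.4.6, pandas 2.3.3 and SciPy 1.17.1, and pysam 0.24.0 read the genome. Alternatives were median centring, −log10 p as height, stricter peaks, FOXO1 summits within 100 bp, distal sites alone, width strata, a replicate block, library name style and leaving out each library.

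Sites were named by their nearest start. Named were the 10 highest and 3 lowest by mean percentile, the 5 highest by FOXO1, the called sites or, where none was called, the 3 with the largest test statistics in each direction, the 3 with the widest and the 3 with the smallest spread, up to 5 genes of each list with the most sites, and the 10 such genes of the genome. Further genes named without values had no site, or were list members named after their counts were seen. Some sites and genes that this rule names are not reported here. The sites and gene lists were chosen with earlier results of these data known.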

Additional observations from a re-analysis of the deposited data

How the results depend on the processing

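The higher GR percentile of GR/FOXO1 sites kept its direction and exact p of 0.03125 under all 6 other settings, from 24.6 points within width strata to 33.2 points with the stronger 50% of FOXO1 regions. Leaving out 1 library gave 27.4 to 30.7 points with an exact p of 0.0625, the smallest that 5 libraries allow. The number of sites ranged from 3022 to 4116 when 1 library was left out, the latter without ctrl. replicate 2.

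For cal. res. against ctrl., median centring called 17 sites (22 over all constant sites) and leaving out 1 library 0 to 0. For CORT against ctrl., a term for library name style called 12 (10 higher, 2 lower), beside 27 over all constant sites (23 higher, 4 lower), and leaving out 1 library gave 0 to 17, with 17 without ctrl. replicate 2, 1 without either cal. res. library and 0 without either CORT library. For cal. res. against CORT, median centring called 92 (87 higher, 5 lower), −log10 p as height 4 and peaks with a q of at most 0.01 also 4 (3 higher, 1 lower each), and name style 0. Over all constant sites these settings called 315 (123 higher, 192 lower), 20 (3 higher, 17 lower), 22 (3 higher, 19 lower) and 0 sites, and leaving out 1 library gave 0 to 76. The cause of these shifts was not tested. The sites called for CORT against ctrl. and for cal. res. against CORT all lost their call without at least 1 library of the groups compared. Over all left-out libraries, the log2 difference of CORT from ctrl. ranged from 2.68 to 3.17 at the Bcl2l1 intron, 1.83 to 2.72 at Ddit4, 1.80 to 2.48 at Fga and 1.22 to 1.39 at Mt1. That of cal. res. from CORT ranged from 1.65 to 2.07 at 1810053B23Rik and from -1.62 to -1.41 at Mt1, and was -0.95 at Mt1 under median centring (limma adjusted p = 0.0932).

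With the replicate block, 0, 3 (3 higher, 0 lower) and 2 (1 higher, 1 lower) sites were called in the 3 comparisons. Over all constant sites there were 0, 11 (10 higher, 1 lower) and 2 (1 higher, 1 lower). The Ddit4 site lost its call (limma adjusted p = 0.0523) while no other call changed. Replicate numbers did not pair the samples, since deviations of replicate 1 libraries correlated at -0.11, -0.14 and 0.13.

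Differences between groups in the percentile advantage turned direction. Leaving out 1 library gave -0.69 to 4.52 points for cal. res. minus ctrl., -4.03 to 4.76 for CORT minus ctrl. and -2.38 to 3.35 for cal. res. minus CORT. Width strata gave -1.47 for CORT minus ctrl. and 3.22 for cal. res. minus CORT, and −log10 p gave 0.32 for the latter. For the share of summits within 50 bp, leaving out 1 library gave -0.28 to 10.6, -1.48 to 9.37 and -0.40 to 2.98 points.

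In 100 bp windows, the forkhead core was at 5.93% of GR/FOXO1 sites and 1.60% of those without FOXO1, a difference of 4.32 points compared with 8.78 in 200 bp, and the HNF4 difference turned to -0.93 points. Genes with a site numbered 1531 within 20 kb and 5103 within 100 kb.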
